A study of Homo sapiens with 10 samples.

Results

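The genes described here are those of telomerase and of shelterin, the machinery that lengthens and protects chromosome ends. TERT and DKC1 represent telomerase, and TERF1, TERF2, TERF2IP, TINF2, POT1 and ACD encode the 6 proteins of shelterin. These 8 genes were taken by symbol from a table of 23284 genes, each symbol was found on 1 row, and all 8 were among the 12788 genes that were tested (those that averaged 0.5 FPKM or more across the samples). The cells were K562, an established human chronic myeloid leukemia line, kept for 48 h in the vehicle DMSO, in 2 or 5 µM CBP30, or in 2 or 5 µM I-CBP112. Each of these 5 conditions had 2 samples, and no genetic change was made in any of them. CBP30 and I-CBP112 bind the bromodomains of CREBBP and EP300, acetyltransferases that modify histones at promoters and enhancers. The labels call the 2 samples of a condition biological replicates of this line, so p-values measure the spread between such samples only. Levels are in FPKM (fragments relative to transcript length and to the mapped reads of the library), a scaling meant to let genes be set side by side. Trends with transcript length that differ between libraries are left in it, as given below.

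Telomerase adds the telomere repeat to chromosome ends. TERT is its reverse transcriptase and TERC the RNA that carries its template, while dyskerin, the product of DKC1, binds TERC and other H/ACA RNAs and keeps them stable. In most somatic cells TERT is silent and telomeres shorten with division, whereas most cancer cells keep the gene on. Shelterin covers the repeats: TERF1 and TERF2 bind the double strand, POT1 binds the single-stranded overhang, ACD (TPP1) holds POT1 and recruits telomerase, TINF2 (TIN2) bridges the double- and single-strand binders, and TERF2IP (RAP1) sits on TERF2.

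TERT and DKC1 are the members that changed most with 5 µM CBP30, and the bases upstream of both are shown for the motifs that can be read in them. TERT lies on hg19 chromosome 5, minus strand, from 1253262 to 1295183, and DKC1 on the X chromosome, plus strand, from 153991017 to 154005964. The promoter windows are RefSeq's for GRCh38.p14, and their 250 bases before the start site match hg19 exactly and once, at chr5:1295184-1295433 on the minus strand for TERT and chrX:153990889-153991138 on the plus strand for DKC1. The RefSeq start of DKC1 lies 122 bases downstream of the gene start given above, so the last bases of its window, with the GC boxes nearest the start site, fall within the annotated gene, while the starts of TERT coincide. Capitals mark CACGTG, the E-box that MYC binds together with MAX, and GGGCGG, the GC box of SP1 and SP3, on either strand.
TERT: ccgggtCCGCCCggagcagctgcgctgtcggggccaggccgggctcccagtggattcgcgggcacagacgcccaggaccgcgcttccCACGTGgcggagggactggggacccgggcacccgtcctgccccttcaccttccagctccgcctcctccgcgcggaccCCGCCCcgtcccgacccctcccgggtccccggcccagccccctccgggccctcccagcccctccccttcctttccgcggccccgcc
DKC1: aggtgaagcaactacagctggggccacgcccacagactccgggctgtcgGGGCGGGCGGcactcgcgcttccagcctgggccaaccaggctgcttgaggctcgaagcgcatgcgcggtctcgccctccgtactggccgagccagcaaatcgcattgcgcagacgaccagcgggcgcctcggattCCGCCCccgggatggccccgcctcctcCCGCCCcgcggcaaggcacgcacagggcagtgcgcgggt

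Counted back from the start site, the TERT window held 1 E-box beginning at −163 and GC boxes beginning at −244, −86 and −5, the last of which runs past the bases printed. The DKC1 window held no E-box and 4 GC boxes, at −201, −197, −66 and −39, of which the first pair overlap. Over all 35116 RefSeq windows of 300 bases, CACGTG was present in 7.26% and GGGCGG in 45.0%. A window was found for 6 of the 8 genes (2 for TINF2), not for TERF1 and TERF2. TERT was the only 1 of the 6 with an E-box, while each of the 6 had at least 1 GC box. These matches describe the letters of the reference sequence within the windows. Bases beyond them, also downstream of the start site, were not searched, so E-boxes there were not counted.

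In DMSO the telomerase genes stood at opposite ends of the levels of these genes. DKC1 was at 141 FPKM, above 95.3% of the tested genes, and TERT at 3.08 FPKM, above 22.2% of them. The shelterin genes lay between them, in the order TERF2IP (45.8 FPKM), POT1 (27.8), TERF2 (20.7), TERF1 (15.6), ACD (12.1) and TINF2 (10.1). TERC was listed between 0 and 0.339 FPKM, at 0 in 3 of the 10 libraries, and was not tested. The libraries were made from polyadenylated RNA, and mature TERC has no poly(A) tail.

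The K562 markers fixed for the check (10 erythroid and hematopoietic genes such as HBZ, HBG2 and TFRC) were present in every library. They summed to 1874 and 1820 FPKM in the DMSO samples, to between 581 and 825 with CBP30 and to between 996 and 1156 with I-CBP112, and 9 of the 10 were called lower and the other higher with 5 µM CBP30. Markers of other cell types (15 genes) summed to between 106 and 136 FPKM, with 3 to 5 of them at 0 in a library and MS4A1 (B cells) at 0 throughout. EPCAM (epithelium) and LYZ (myeloid cells) were the highest of them, EPCAM at up to 59.7 FPKM, and of the 6 that could be tested 4 were called higher and 1 lower with 5 µM CBP30. The part of these markers in the results was not tested, and in RNA from whole cultures a lower level in every cell cannot be told apart from fewer cells that express the gene. The table holds no read counts, and from 607 genes with low values the relative depth of the libraries was estimated at 0.915 to 1.08 times their mean.

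One library stood apart. In replicate 1 of 2 µM CBP30 the deviation of a gene from its mean followed transcript length (Spearman's rho = −0.587 over 12175 genes), so that short transcripts read high and long ones low. The rho was 0.33 in both samples of 5 µM CBP30 and between −0.081 and 0.22 in the other libraries. The fitted changes of single members with 2 µM CBP30 are therefore given with and without this library. The shelterin intervals and the medians are given only with it. Without it 2 µM CBP30 has 1 sample, and the test takes its spread from the other conditions. The p-values and counts of called genes from such fits are thus no added evidence for a call. The same holds wherever 1 sample was left out.

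TERT was lower in every inhibitor-treated sample than in either DMSO sample. Its levels were 3.03 and 3.13 FPKM in DMSO, 1.86 and 1.78 with 2 µM CBP30, and 0.816 and 0.941 with 5 µM CBP30. With I-CBP112 they were 2.58 and 2.81 FPKM at 2 µM and 2.15 and 2.16 at 5 µM. No pair of conditions overlapped, and the order ran upwards from 5 µM CBP30 through 2 µM CBP30, 5 µM I-CBP112 and 2 µM I-CBP112 to DMSO.

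Relative to the DMSO mean, TERT was at 28.5% with 5 µM CBP30, 59.0% with 2 µM CBP30, 69.9% with 5 µM I-CBP112 and 87.4% with 2 µM I-CBP112. On the log2(FPKM + 1) scale used for testing, which understates the change of a gene this low, it fell by 1.12 with 5 µM CBP30 (SE 0.069, adjusted p = 3.36e-05, limma with Benjamini-Hochberg adjustment over all tested genes). The ratio of the plain means was −1.81 on the log2 scale. Only 2.46% of the tested genes had a lower log2 fold change in this comparison.

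The change of TERT with 2 µM CBP30 was −0.53 (adjusted p = 0.0018 by limma), a call lost when only these 2 conditions were fitted (adjusted p = 0.067). Without the library that stood apart the change was −0.55. With 5 µM I-CBP112 the change was −0.37 (adjusted p = 0.023 by limma), a call that was lost when any 1 of the 4 samples compared was left out (adjusted p from 0.106 to 0.126). With 2 µM I-CBP112 it was −0.14 (95% confidence interval −0.31 to 0.017, adjusted p = 0.42), which did not pass the test.

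**Figure D1:**
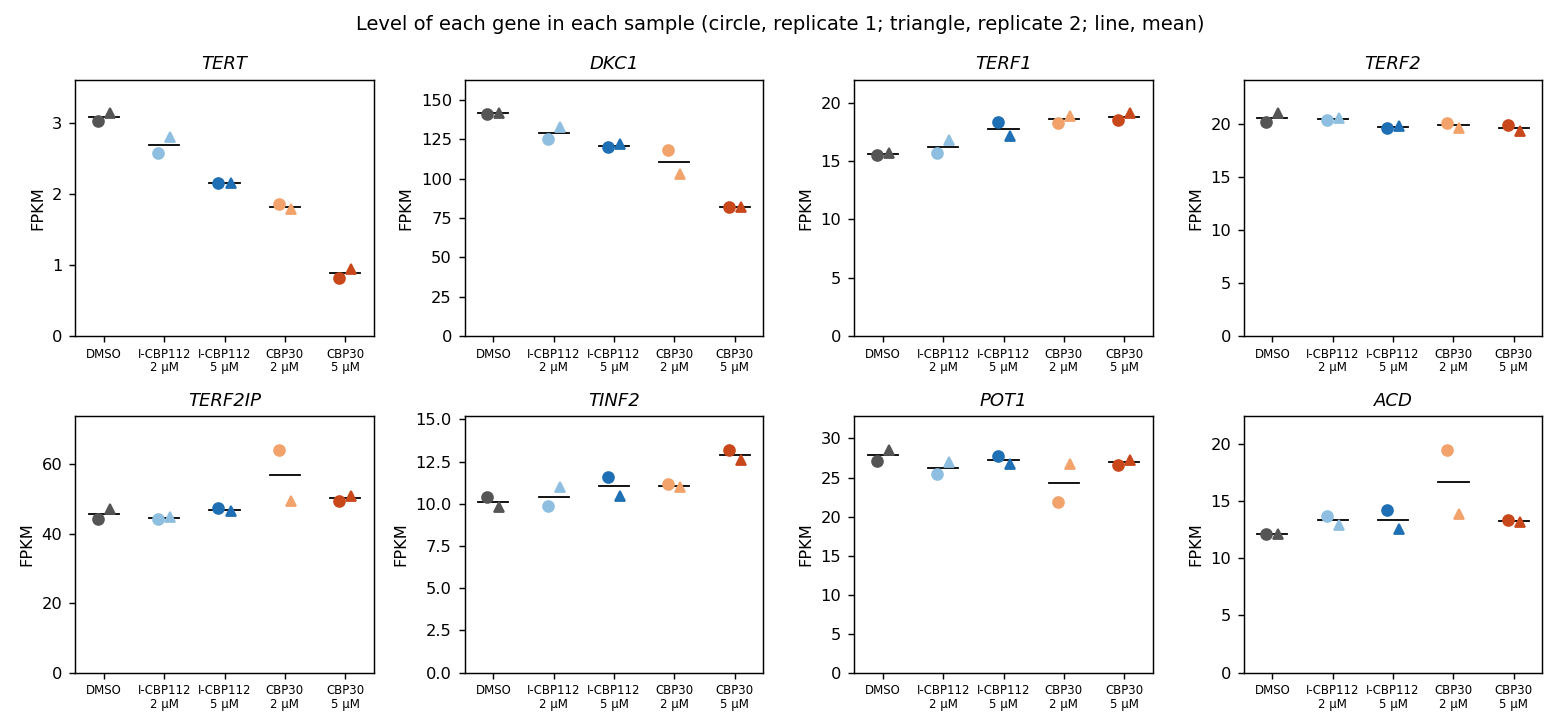
The level in FPKM (vertical axes, from 0) of each of the 8 genes in each sample, by condition, with circles for replicate 1, triangles for replicate 2 and lines for means. TERT and DKC1 step down from DMSO to 5 µM CBP30 (TERT from 3.08 to 0.878 FPKM, DKC1 from 141 to 82.2), TERF1 and TINF2 are higher with 5 µM CBP30, and in TERF2IP, POT1 and ACD the samples of 2 µM CBP30 lie apart from each other.

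DKC1 followed the same order of conditions as TERT, over a smaller range. It stood at 141 and 142 FPKM in DMSO, at 118 and 103 with 2 µM CBP30, and at 82.2 and 82.1 with 5 µM CBP30. With I-CBP112 it stood at 125 and 133 FPKM at 2 µM and at 120 and 122 at 5 µM. As with TERT, neighbouring conditions did not overlap and all 8 treated samples were below both DMSO samples.

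DKC1 was at 58.1% of the DMSO mean with 5 µM CBP30 (log2 fold change −0.78, SE 0.069, adjusted p = 0.000161 by limma) and at 78.3% with 2 µM CBP30 (−0.35, adjusted p = 0.0095). Without the library that stood apart the change at 2 µM was −0.45. Leaving out either DMSO sample ended the call at 2 µM, as did fitting only these 2 conditions (adjusted p = 0.139). Under I-CBP112 the level was 85.6% at 5 µM (−0.22, adjusted p = 0.111) and 91.2% at 2 µM (−0.13, adjusted p = 0.47), neither of which passed. With the trend with transcript length removed from each library, the change with 5 µM I-CBP112 was the same size and passed (−0.22, adjusted p = 0.013). Within the DKC1 gene the annotation places the small RNA genes SNORA36A and SNORA56 on the same strand.

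The 2 concentrations and the 2 compounds were also compared directly. Between 2 and 5 µM CBP30, TERT differed by −0.59 (adjusted p = 0.0023 by limma) and DKC1 by −0.42 (adjusted p = 0.0065), and these 2 were the only members called, in a comparison where 38.9% of all tested genes were called. Without the library that stood apart the differences were −0.57 and −0.32. Both calls were lost when only these 2 conditions were fitted (adjusted p = 0.114 and 0.136), and that of DKC1 also without replicate 2 of 5 µM CBP30. Between 2 and 5 µM I-CBP112 none of the 8 genes was called by limma (1 at an unadjusted p under 0.05, which was TERT), against 0.0626% of all genes. The difference of TERT there was −0.23 (95% confidence interval −0.39 to −0.066, adjusted p = 0.67) and that of DKC1 −0.09 (interval −0.25 to 0.073).

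At the matched concentration of 5 µM, TERT was lower with CBP30 than with I-CBP112 by −0.75 on the log2 scale (adjusted p = 0.00048 by limma) and DKC1 by −0.55 (adjusted p = 0.0016). They were again the only 2 members called, with 31.4% of all tested genes called. At 2 µM, TERT was lower with CBP30 by −0.39 (adjusted p = 0.014) and was the only member called, beside 15.6% of all genes. Without the library that stood apart the difference was −0.41. The call was lost without either sample of 2 µM I-CBP112 and when only these 2 conditions were fitted (adjusted p = 0.231). DKC1 differed there by −0.22 (interval −0.38 to −0.058, adjusted p = 0.070), and by −0.32 without the library that stood apart. With both libraries kept, DKC1 was called under quantile normalization (−0.31, adjusted p = 0.0020 by limma) and with the length trend removed (−0.28, adjusted p = 0.0048).

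MYC, a transcription factor known to act on the TERT promoter and on DKC1, was read beside them. It stood at 338 and 320 FPKM in DMSO, 148 and 146 with 2 µM CBP30, and 81.7 and 80.9 with 5 µM CBP30. With I-CBP112 it stood at 241 and 231 FPKM at 2 µM and at 210 and 201 at 5 µM, so the conditions had the same order as in TERT and DKC1. Relative to DMSO, MYC was at 24.7% with 5 µM CBP30, close to the 28.5% of TERT and below the 58.1% of DKC1. With 2 µM I-CBP112 MYC was at 71.7% and was called lower (log2 fold change −0.48, adjusted p = 0.0094 by limma), where TERT was at 87.4% and DKC1 at 91.2%. TERT came to 0.938% of the MYC level in DMSO and to between 1.05% and 1.24% in the treated conditions. Over the 10 samples TERT correlated with DKC1 at r = 0.985 (rho = 0.988) and with MYC at r = 0.984 (rho = 0.952), a description only, since the 10 libraries share 5 conditions and 1 table. The median best r of a tested gene with another was 0.979, and neither DKC1 nor MYC was among the 3 nearest profiles of TERT.

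**Figure D2:**
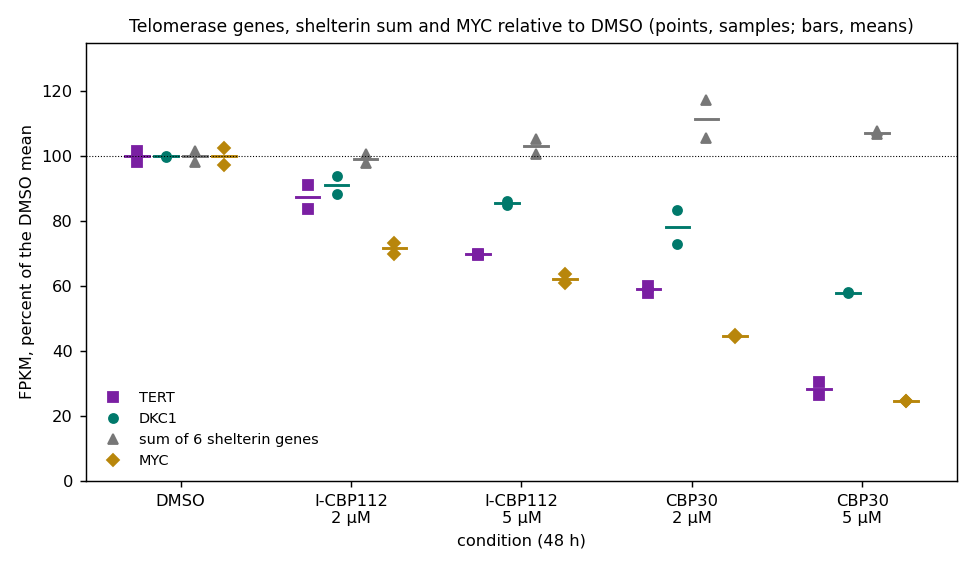
TERT, DKC1, the sum of the 6 shelterin genes and MYC in each sample as a percentage of their own DMSO mean (vertical axis), by condition, with bars for means. In 5 µM CBP30, TERT (28.5%) and MYC (24.7%) lie lowest and DKC1 at 58.1%, while the shelterin sum lies around or above the dotted line, which marks the DMSO mean.

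The shelterin genes as a group stayed near their DMSO level or above it. Their FPKM summed to 132 ± 3.23 (SD, n = 2) in DMSO, 147 ± 10.9 with 2 µM CBP30, 142 ± 1.06 with 5 µM CBP30, 131 ± 2.66 with 2 µM I-CBP112 and 136 ± 4.14 with 5 µM I-CBP112. This sum was 42.9 times the level of TERT in DMSO, 81.0 times with 2 µM CBP30 and 162 times with 5 µM CBP30. Replicate 2 of 2 µM CBP30 alone gave a sum of 140 FPKM, 78.4 times TERT. The corresponding ratios were 48.8 and 63.2 with 2 and 5 µM I-CBP112. DKC1 stood at 45.9 times the level of TERT in DMSO and at 60.8 and 94.0 times with 2 and 5 µM CBP30. These ratios describe the means and were not tested, and trends with transcript length that differ between libraries were not removed from them.

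Of the double-strand binders, TERF1 was higher with CBP30 and TERF2 was not called. TERF1 (chromosome 8, 73921091 to 73960358, plus strand) restrains telomere elongation and helps forks pass through telomeres. It was at 15.5 and 15.7 FPKM in DMSO, 18.3 and 18.9 with 2 µM CBP30, and 18.5 and 19.1 with 5 µM CBP30. With I-CBP112 it was at 15.7 and 16.8 FPKM at 2 µM and 18.3 and 17.1 at 5 µM. All CBP30 samples and both samples of 5 µM I-CBP112 were above DMSO, and the samples of 2 and 5 µM CBP30 overlapped each other.

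The log2 fold change of TERF1 was 0.25 with 5 µM CBP30 (SE 0.056, adjusted p = 0.0086 by limma), a rise of the means by 1.21 times. With 2 µM CBP30 the change of TERF1 was 0.24 (adjusted p = 0.018), and 0.26 without the library that stood apart. With 5 µM I-CBP112 the change was 0.17 (95% interval 0.040 to 0.30, adjusted p = 0.124), which did not pass. Leaving out DMSO replicate 1 or replicate 2 of 5 µM CBP30 ended the call at 5 µM (adjusted p = 0.052 and 0.061), and leaving out either DMSO sample ended that at 2 µM (adjusted p = 0.092 and 0.078), as did fitting only these 2 conditions (0.164). TERF1 has 7 processed pseudogenes in the annotation, none of them listed in the table, and reads shared with these copies could not be separated.

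TERF2 (chromosome 16, 69389470 to 69442474, minus strand) forms the loop that hides the chromosome end from the damage response. Of the 8 genes it varied least across samples, between 19.3 and 21.1 FPKM in all 10 samples. The highest value was in DMSO and the lowest with 5 µM CBP30, and the log2 fold change between these conditions was −0.07 (95% interval −0.17 to 0.038, adjusted p = 0.25 by limma). The changes with the other treatments were smaller (from −0.06 to −0.01), also with 2 µM CBP30 without the library that stood apart (−0.06). The ratio of TERF1 to TERF2 went from 0.756 in DMSO to 0.934 and 0.957 with 2 and 5 µM CBP30.

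TINF2 (chromosome 14, 24707492 to 24711869, minus strand), the bridge of the complex, rose with 5 µM CBP30. It was at 10.4 and 9.79 FPKM in DMSO, 11.2 and 10.99 with 2 µM CBP30, and 13.2 and 12.6 with 5 µM CBP30, so that both samples of the higher concentration were above every other sample. With I-CBP112 it was at 9.86 and 10.99 FPKM at 2 µM and 11.6 and 10.5 at 5 µM, which overlapped DMSO at 2 µM and not at 5 µM. The log2 fold change was 0.32 with 5 µM CBP30 (SE 0.073, adjusted p = 0.0092 by limma), or 1.28 times the DMSO mean, and 0.12 with both 2 µM CBP30 (adjusted p = 0.24, or 0.11 without the library that stood apart, adjusted p = 0.36) and 5 µM I-CBP112 (adjusted p = 0.41). The call at 5 µM was lost without DMSO replicate 2 or without replicate 1 of 5 µM CBP30 (adjusted p = 0.063 and 0.064). TINF2 overlaps GMPR2 on the opposite strand, which the table lists as a gene of its own. On the opposite strand the annotation also places CYB5B over TERF2, KARS1 over TERF2IP and CARMIL2 over ACD. The libraries were stranded, and the strand setting of the counting is not given in the sources used here.

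In the main fit TERF2IP, ACD and POT1 were not called against DMSO in any condition, and with 2 µM CBP30 their values rest on which library is read. TERF2IP (chromosome 16, 75681671 to 75795770, plus strand) was at 44.4 and 47.1 FPKM in DMSO, 64.2 and 49.5 with 2 µM CBP30, and 49.4 and 51.1 with 5 µM CBP30. With I-CBP112 it lay between 44.2 and 47.5 FPKM. The highest sample was replicate 1 of 2 µM CBP30, the library that stood apart. The log2 fold change of 0.30 (adjusted p = 0.075 by limma) became 0.11 without that library. With both libraries kept, TERF2IP was called with the length trend removed (0.23, adjusted p = 0.042) and under quantile normalization (0.27, adjusted p = 0.023). With 5 µM CBP30 the change was 0.13 (adjusted p = 0.35), and it was called with the length trend removed (0.23, adjusted p = 0.029) and under quantile normalization (0.24, adjusted p = 0.023).

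ACD (chromosome 16, 67691415 to 67694713, minus strand), with the shortest transcript of the 8 genes (1511 bases), showed the same split. It was at 12.1 FPKM in both DMSO samples, at 19.4 and 13.9 with 2 µM CBP30, and at 13.3 and 13.2 with 5 µM CBP30. I-CBP112 gave 13.7 and 12.9 FPKM at 2 µM and 14.2 and 12.5 at 5 µM. Every treated sample was above DMSO, and replicate 1 of 2 µM CBP30 was the highest. The log2 fold change with 2 µM CBP30 was 0.41 (SE 0.138, adjusted p = 0.058 by limma), and 0.18 (adjusted p = 0.105) without that library. With the replicate number as a block it was called (adjusted p = 0.044). With 5 µM CBP30 it was 0.12 (adjusted p = 0.51), called when only these 2 conditions were fitted (adjusted p = 0.045) and when the length trend was removed (0.25, adjusted p = 0.041).

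POT1 (chromosome 7, 124462440 to 124570037, minus strand), with a transcript of 3924 bases, went the other way in the same library. It was at 27.1 and 28.5 FPKM in DMSO, 21.9 and 26.7 with 2 µM CBP30, and 26.6 and 27.2 with 5 µM CBP30, with 25.5 to 27.8 in the I-CBP112 samples. The log2 fold change was −0.19 with 2 µM CBP30 (adjusted p = 0.13 by limma), −0.06 (adjusted p = 0.43) without replicate 1, and −0.05 (95% interval −0.25 to 0.16, adjusted p = 0.71) with 5 µM CBP30.

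**Figure D3:**
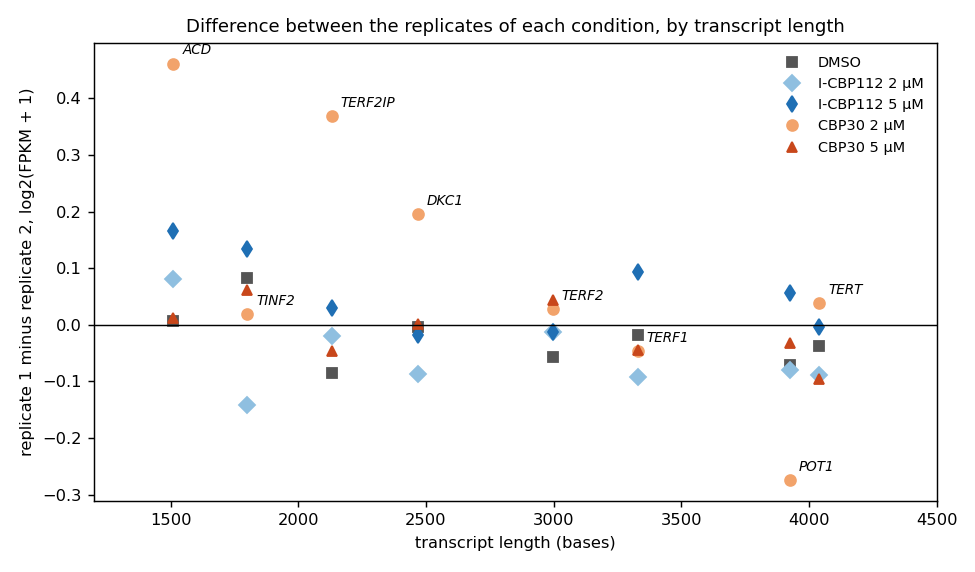
The difference between replicate 1 and replicate 2 of each condition on the log2(FPKM + 1) scale (vertical axis) against transcript length in bases (horizontal axis) for the 8 genes, which are named at their points for 2 µM CBP30. In 2 µM CBP30 the difference is 0.46 for ACD and 0.37 for TERF2IP, at 1511 and 2131 bases, and −0.27 for POT1 at 3924 bases, while in the other conditions every gene lies between −0.14 and 0.17.

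Transcript length did not order all 8 genes in that library. The replicates of 2 µM CBP30 differed by 0.02 for TINF2 (1801 bases), 0.20 for DKC1 (2469 bases), 0.03 for TERF2 (2996 bases), −0.05 for TERF1 (3329 bases) and 0.04 for TERT (4039 bases), so that the replicates of TERT, the longest, lay close together. The part of length in the values of single genes was not tested beyond the fit with the trend removed.

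**Figure D4:**
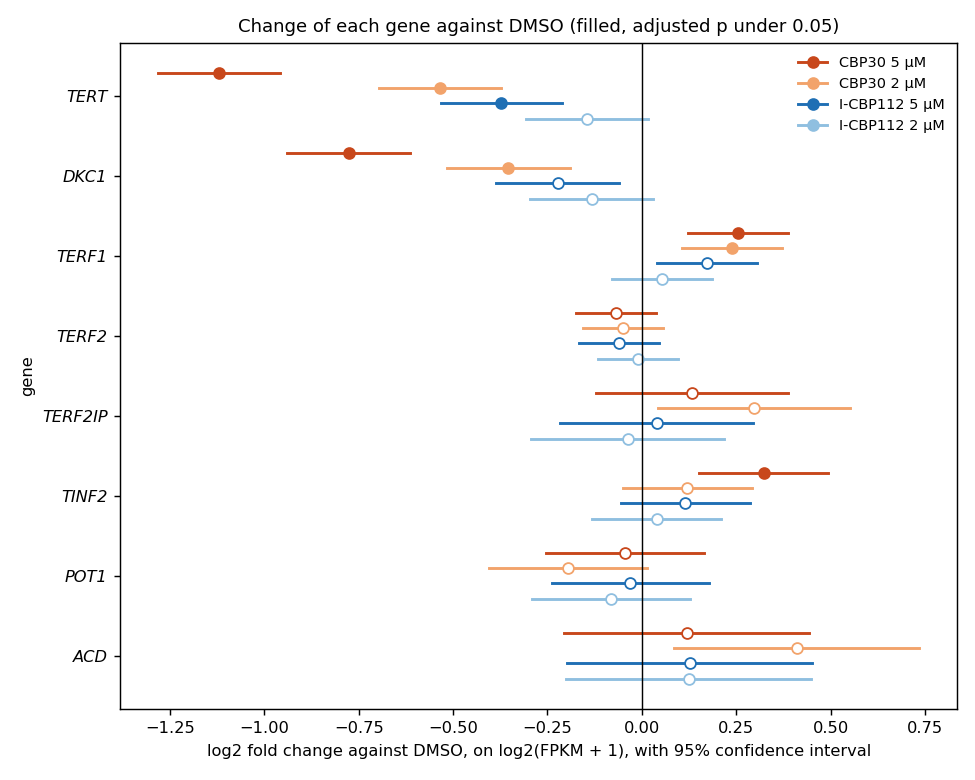
The log2 fold change against DMSO on the log2(FPKM + 1) scale with its 95% confidence interval (horizontal axis) for the 8 genes (vertical axis) in the 4 treatments, with filled points where the adjusted p was under 0.05. The 5 called falls are those of TERT and DKC1, from −1.12 to −0.35, and the 3 called rises those of TERF1 and TINF2, from 0.24 to 0.32.

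Counted over the 8 genes, 2 were called lower (TERT and DKC1) and 2 higher (TERF1 and TINF2) with 5 µM CBP30, where 25.4% of all tested genes were called lower and 21.2% higher. With 2 µM CBP30, 2 were lower and 1 higher (TERF1), beside 16.3% and 15.9% of all genes. With 5 µM I-CBP112, 1 was lower (TERT) and 0 higher, beside 3.28% and 3.84%. With 2 µM I-CBP112 limma called 0 of the 8 (0 at an unadjusted p under 0.05), beside 0.735% lower and 0.868% higher. The shares of called members with CBP30 are thus near those of all genes. The median log2 fold change of the 8 genes was 0.037 with 5 µM CBP30 and 0.035 with 2 µM CBP30, where the medians of all tested genes were −0.0096 and 0.0051. All treatments were compared with the same DMSO samples.

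In the 4 direct comparisons the main limma fit called 0 of the 6 shelterin genes, with 0 to 2 at an unadjusted p under 0.05. Of all tested genes it called 38.9% between the CBP30 concentrations and 0.0626% between those of I-CBP112. Between the compounds it called 31.4% at 5 µM and 15.6% at 2 µM. With the length trend removed, TINF2 was called higher with 5 µM CBP30 than with 2 µM CBP30 and than with 5 µM I-CBP112. Of all 12788 tested genes this removal called 2381 lower and 2219 higher in the first comparison, and 2580 and 2394 in the second. At 2 µM, TERF1 and TERF2IP were called higher with CBP30 than with I-CBP112 under this removal and under quantile normalization. Median centring called TERF1 there. Of all tested genes, removal of the trend, quantile normalization and median centring called 1585, 1228 and 983 lower there and 1450, 1245 and 971 higher. In the main fit the 95% intervals of the 6 genes between 2 and 5 µM CBP30 ran from −0.62 to 0.37 on the log2 scale, with a smallest adjusted p of 0.062. Between CBP30 and I-CBP112 the intervals ran from −0.33 to 0.38 at 5 µM (smallest adjusted p = 0.067) and from −0.32 to 0.61 at 2 µM (0.064). The bounds of −0.62 and 0.61 were those of ACD, which read 19.4 and 13.9 FPKM in the 2 samples of 2 µM CBP30. A difference within these bounds was not resolved with 2 samples per condition.

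Around the 8 genes, 6 lists of telomere genes were read against the shares of all tested genes given above (25.4% lower and 21.2% higher with 5 µM CBP30, 16.3% and 15.9% with 2 µM) and against medians of all tested genes near 0 (−0.0096 and 0.0051). With 2 µM CBP30 the shares were 19.9% and 17.2% without the library that stood apart. The other genes of telomerase assembly and RNA maturation (15 genes, 14 tested) were called lower for 6 and higher for 3 with 5 µM CBP30, with a median log2 fold change of −0.13. GAR1, which sits with dyskerin on H/ACA RNAs, fell from 74.6 to 36.2 FPKM (−1.02, adjusted p = 0.000202 by limma). RUVBL2 and RUVBL1, the helicases that help assemble the particle, fell from 111 to 65.1 FPKM (−0.76) and from 59.8 to 37.4 FPKM (−0.66). The poly(A) polymerase PAPD5, which tags immature TERC for decay, rose from 3.01 to 5.05 FPKM (0.59). With 2 µM CBP30, 3 of the 14 were called lower and 0 higher (3 and 1 without the library that stood apart), and with I-CBP112 limma called 0 at either concentration (3 at 5 µM and 2 at 2 µM at an unadjusted p under 0.05), with GAR1 at −0.36 (adjusted p = 0.070) at 5 µM.

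Among 12 tankyrases and other regulators of TERF1 and telomerase, 6 were lower and 2 higher with 5 µM CBP30 (median −0.25), and 5 were lower and 1 higher with 2 µM (4 and 1 without that library). PINX1, a TERF1-binding inhibitor of telomerase, fell from 23.2 to 11.1 FPKM (−1.0, adjusted p = 0.000589 by limma). FBXO4, a ubiquitin ligase subunit that marks TERF1 for degradation, fell from 20.8 to 13.8 FPKM (−0.56), and the nucleolar GTPase GNL3 from 63.8 to 42.4 FPKM (−0.58). The kinase NEK7 rose from 18.2 to 35.8 FPKM (0.94). With I-CBP112 limma called 0 of the 12 (1 at each concentration at an unadjusted p under 0.05).

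The 13 genes of the CST complex and of telomere replication were called lower for 2 and higher for 3 with 5 µM CBP30, with 1 each way at 2 µM (1 lower and 2 higher without that library). The helicase WRN fell from 20.8 to 15.0 FPKM (−0.44, adjusted p = 0.011 by limma), while the fork protein TIMELESS rose from 31.4 to 42.9 FPKM (0.44), the nuclease DNA2 from 18.0 to 23.0 FPKM (0.34) and OBFC1 (STN1 of CST) from 1.65 to 2.13 FPKM (0.24). Of 11 genes of end processing and DNA damage, 0 were lower and 3 higher with 5 µM CBP30, and 0 were called by limma with 2 µM CBP30 (2 at an unadjusted p under 0.05), where 3 were called higher without that library. Those called with 5 µM were the kinase ATM, from 2.91 to 6.04 FPKM (0.85, adjusted p = 0.0062), TP53BP1, from 9.34 to 14.1 FPKM (0.55), and DCLRE1B (Apollo), a nuclease that TERF2 recruits, from 7.86 to 9.57 FPKM (0.26). With I-CBP112 limma called 0 genes of either list (1 of each at 5 µM and 0 at 2 µM at an unadjusted p under 0.05).

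Of 13 genes of telomere chromatin, 3 were lower and 5 higher with 5 µM CBP30, and 1 lower and 2 higher with 2 µM (2 and 4 without that library). MUS81, a nuclease, fell from 26.6 to 15.1 FPKM (−0.78, adjusted p = 0.000112 by limma). H3F3B, which encodes histone H3.3, rose from 169 to 284 FPKM (0.74), CBX5 (HP1 alpha) from 38.9 to 62.8 FPKM (0.68) and SMC5 from 9.07 to 13.7 FPKM (0.55). H3F3B was the single gene of this list called with 5 µM I-CBP112 (0.48, adjusted p = 0.014), and 0 were called with 2 µM I-CBP112 (1 at an unadjusted p under 0.05).

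The factors known to act on the TERT promoter (14 genes, 13 tested) were called lower for 5 and higher for 4 with 5 µM CBP30. With 2 µM, 3 were lower and 1 higher (4 and 2 without that library). MYC changed most (−2.0, adjusted p = 1.02e-06 by limma), followed by ETS1, from 5.61 to 2.68 FPKM (−0.84). MAX, the partner of MYC, fell from 47.8 to 35.5 FPKM (−0.42), and SP3, which binds GC boxes, rose from 19.9 to 28.0 FPKM (0.47). With I-CBP112, MYC was the only 1 of the 13 called, lower at both concentrations. In these 6 lists calls were thus found in both directions with 5 µM CBP30, except in that of end processing.

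For each member the 3 tested genes with the most similar profile were found by Pearson's r over the 10 samples, small RNA genes left out. Those of TERT were ST3GAL4 (r = 0.996), S100P (0.995) and FTSJ1 (0.995), and those of DKC1 were UROD (0.999), ALG3 (0.997) and B4GALT2 (0.997). ST3GAL4, a sialyltransferase, went from 18.8 FPKM in DMSO to 8.20 with 5 µM CBP30, and UROD, an enzyme of heme synthesis, from 360 to 141 FPKM. A tested gene had a median best r of 0.979 with another (12392 genes), and 5.37% of these genes had a best r at least as high as that of TERT and 0.0646% as that of DKC1.

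Among the shelterin genes the nearest profiles were SKA2, SLC39A6 and HNMT for TERF1 (r from 0.961 to 0.966), MANBA, NCOA5 and PIK3CD for TINF2 (0.963 to 0.965) and BAP1 for TERF2, whose best r of 0.924 was the lowest of the 8. SHMT1, UNG and COX6A1 were nearest to TERF2IP (0.986 to 0.991), CDK2AP2, CTNNBIP1 and ARMC5 to ACD (0.972 to 0.978), and UBQLN1, TCP11L1 and NCBP1 to POT1 (0.954 to 0.973). TERF2IP and ACD correlated with each other at r = 0.881 but rho = 0.515, and ACD and POT1 at r = −0.902 but rho = −0.479. In replicate 1 of 2 µM CBP30, TERF2IP and ACD were at their highest and POT1 at its lowest of the 10 samples.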

How the data were processed

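K562 RNA from 10 samples (5 conditions, 2 samples each, 48 h) was measured by stranded, poly(A)-selected, single-end RNA-seq. The authors deposited 1 FPKM value per gene and sample, per the labels made with FastQC, TopHat2 2.0.10, Bowtie 1.0.0, SAMtools 0.1.19, Cufflinks 2.2.1 and Cuffnorm on hg19, within the Nextpresso pipeline; the gene annotation is not given in the sources used here. The table holds no counts, so precision rests on 2 samples per condition.

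The 12788 of 23284 genes averaging 0.5 FPKM or more were tested as log2(FPKM + 1), pseudocount 1, with limma 3.58.1 in R 4.3.3 (lmFit, eBayes with trend, 5 residual and 2.15 prior degrees of freedom), all samples in 1 fit, 8 comparisons, Benjamini-Hochberg adjusted p under 0.05. On simulated data 179 of 200 genes changed by 1 on the log2 scale were called with 5 µM CBP30, and 8 of the others of 12788. The changed genes were drawn from higher levels than that of TERT, and the noise was independent, with no length trend. Changes as small as the called rises of TERF1 and TINF2 were not simulated, so these counts do not carry over to the members.

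Transcript lengths and hg19 positions came from the GENCODE annotation for that build (canonical transcript, 21489 genes of the table), and promoter windows from RefSeq (GRCh38.p14). Tried in turn were 0.1 as pseudocount, the unfiltered table or a 5 FPKM filter, median centring, quantile normalization, eBayes with no trend, separate fits per comparison, a replicate block, removal of the length trend, and leaving out each sample. The genes, the lists around them and the markers were chosen with earlier results of these data known. Named besides the 8 genes are MYC, up to 4 genes per list with the largest change among those called with 5 µM CBP30, the 3 nearest profiles of each member, and TERC, which was not tested. H3F3B with I-CBP112, GAR1 with I-CBP112 and the markers named were chosen after their values were seen.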

Additional observations from a re-analysis of the deposited data

How the results depend on the processing

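With 5 µM CBP30 against DMSO, TERT kept its direction and its call in all 12 alternatives that tested it (log2 fold change from −1.70 to −1.07) and DKC1 in all 13 (−0.78 to −0.65). Of the 32 fold changes of single genes followed through the alternatives, values stayed on the same side of the threshold in 260 of 280 cases when a setting was changed. In the other cases 6 calls were lost and 14 gained. The 32 include values not called in the main fit, so this agreement does not measure how often a call held. Calls lost when 1 sample was left out are given with each gene above. TERT could not be tested with the filter at 5 FPKM, which lowered the count of called genes from 1 to 0 with 5 µM I-CBP112, from 2 to 1 between the CBP30 concentrations and between the compounds at 5 µM, and from 1 to 0 between the compounds at 2 µM. With 5 µM CBP30, where 4 genes were called, fitting only the groups compared called 5 (ACD added), quantile normalization 5 (TERF2IP added) and removal of the length trend 6 (both added). Of all tested genes these 3 settings called 4165, 3178 and 3512 lower and 3632, 3151 and 3378 higher (main fit 3245 and 2717). Fitting only the groups compared called 0 genes with 2 µM CBP30, 0 between the CBP30 concentrations, 0 between the compounds at 2 µM and 2 with 5 µM I-CBP112. Of all 12788 tested genes it called 164 lower and 143 higher with 2 µM CBP30 (main fit 2079 and 2032). Between the CBP30 concentrations it called 4 and 2 (main fit 2724 and 2255). Between the compounds at 2 µM it called 9 and 5 (main fit 1081 and 912). With 5 µM I-CBP112 it called 856 and 805 (main fit 419 and 491). Quantile normalization and removal of the length trend each called 5 genes with 2 µM CBP30, where TERF2IP and ACD were added, 2 with 5 µM I-CBP112 and 4 between the compounds at 2 µM, where median centring called 2. Of all tested genes these 2 settings called 2185 and 2552 lower and 2206 and 2542 higher with 2 µM CBP30. With 5 µM I-CBP112 they called 489 and 914 lower and 551 and 912 higher. Counts over all genes for the direct comparisons are given above. Removal of the length trend called 3 genes between the CBP30 concentrations and 3 between the compounds at 5 µM, TINF2 being added in each. The cause of these shifts was not tested. When 1 sample is left out, the lone sample left is assumed to vary like the other groups, so counts of called genes from these fits are not read. With replicate 1 of 2 µM CBP30 kept alone, the log2 fold change against DMSO was 0.64 for ACD, 0.48 for TERF2IP and −0.33 for POT1. POT1 with 5 µM CBP30 turned to 0.031 under quantile normalization, and TINF2 with 2 µM I-CBP112 ranged from −0.032 to 0.11 when 1 sample was left out, neither of which was called.

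The deviations of samples with the same replicate number correlated at −0.068 to 0.094 over the 10 pairs of conditions. Whether samples were handled in pairs cannot be told from these values. With the replicate block, 4 genes were called with 2 µM CBP30 in place of 3, ACD being added (0.41, adjusted p = 0.044 by limma), and no other call among the 8 genes changed. Of all tested genes the block called 1943 lower and 1858 higher with 2 µM CBP30. The depth of single libraries is unknown, so the precision of the low TERT values cannot be given from counts.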
